A study of Mus musculus with 15 samples.

Results

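The mouse HOX genes were taken as every row of the deposited count table whose symbol is Hox, a cluster letter from a to d and a paralogue number. They are 39 of 55341 symbols. They lie in 4 clusters, 11 in HOXA on chromosome 6, 10 in HOXB on chromosome 11, 9 in HOXC on chromosome 15 and 9 in HOXD on chromosome 2. HOX genes encode homeodomain transcription factors that give cells their position along the body axis. Within a cluster the genes stand in order, low paralogue numbers at the end used in anterior tissues and high numbers at the end used in posterior tissues, and genes with the same number in different clusters are copies of 1 ancestral gene. Adult mammary epithelium and mammary tumours keep part of this code, and Polycomb proteins hold silent members closed while trithorax proteins keep active members open.

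The cells were 6DT1, a line grown from a mammary cancer of FVB/N1 mice. Wild-type 6DT1 cells were set beside cells with a knockout of Clic4, the gene of chloride intracellular channel protein CLIC4. Both kinds of cell went untreated or had 1 µM hydrogen peroxide (H2O2), an oxidant, for 24 h before polyadenylated RNA was sequenced. There were 4 untreated knockout libraries (replicates 1 to 4), 3 treated knockout libraries (5, 7 and 8), 4 untreated wild-type libraries (9 to 12) and 4 treated wild-type libraries (13 to 16). The labels give neither the number of knockout clones nor whether replicates were separate cultures, so p-values measure the spread between these libraries, which may be technical.

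The libraries held 12.31 to 16.03 M counts. Clic4 stood at 64.2 to 75.9 CPM (counts per M, scaled by the TMM method) in the 7 knockout libraries and at 313 to 327 CPM in the 8 wild-type libraries. Keratins of mammary epithelium were abundant (summed epithelial markers 922 to 1062 CPM), but the epithelial adhesion genes Cdh1 and Epcam had 0 to 2 counts per library. The sum hides shifts between genotypes. Of 3 epithelial markers tested in untreated cells, 1 was higher in knockout (log2 difference 1.52), 1 lower (-1.12) and 1 not called. Markers of basal cells reached at most 6 counts and those of adipocytes at most 2. The 7 fibroblast markers, mostly Pdgfra and with Lum at 0, summed to 11.1 to 13.9 CPM in knockout and 16.9 to 22.5 CPM in wild-type libraries. The 5 endothelial markers summed to 1.58 to 2.40 CPM in knockout and 0.818 to 3.51 CPM in wild-type libraries. The 3.51 CPM was replicate 9, and the other 7 wild-type libraries reached at most 1.48 CPM, below every knockout library. The part of these shifts in the HOX results was not tested. Replicate 9 stood apart. Its title, description and source say wild type while its genotype field says knockout, and its Clic4 level was that of wild type. It held 490 counts of 6 leukocyte markers, 288 of them Lyz2, against 11 to 28 in the other 7 wild-type libraries and 48 to 61 in the knockout libraries. It was kept as wild type, and the HOX results that it changes most are given with and without it.

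A HOX gene was called expressed in a genotype when it reached 0.5 CPM in every library of that genotype, trace when it had counts but did not, and not detected when every library had 0 counts. By this rule 9 HOX genes were expressed in wild-type cells, 13 were trace and 17 were not detected. In knockout cells 10 were expressed, 5 were trace and 24 were not detected. Among the 9 expressed in both genotypes were Hoxa3, Hoxa4, Hoxa5, Hoxa6, Hoxa7, Hoxb3, Hoxb4 and Hoxb7. The tenth in knockout cells was Hoxb2, which missed the rule in wild-type cells because of replicate 9 alone, and without that library 10 genes were expressed in wild-type cells as well. The same rule called 21.7% of all symbols expressed in wild-type and 21.5% in knockout libraries.

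Expression was limited to 2 clusters and to low and middle paralogue numbers. HOXA had 6 of 11 members expressed in each genotype. HOXB had 3 of 10 in wild-type and 4 of 10 in knockout cells. No member of HOXC or HOXD was expressed in either genotype, and all 9 HOXD genes had 0 counts in all 15 libraries, which allows up to 0.0254 CPM in wild-type and 0.0301 CPM in knockout cells (3 counts over the genotype, counting error only). By position, 3 of the 8 members numbered 1 to 3 were expressed in wild-type and 4 in knockout cells, 6 of the 15 numbered 4 to 8 in each genotype, and 0 of the 16 numbered 9 to 13. These totals include HOXC and HOXD, which were silent at every position. Within HOXA and HOXB alone, 3 of 6 (wild type) or 4 of 6 (knockout) were expressed at 1 to 3. At 4 to 8 it was 6 of 9 in each genotype, and at 9 to 13 it was 0 of 6.

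**Figure D1:**
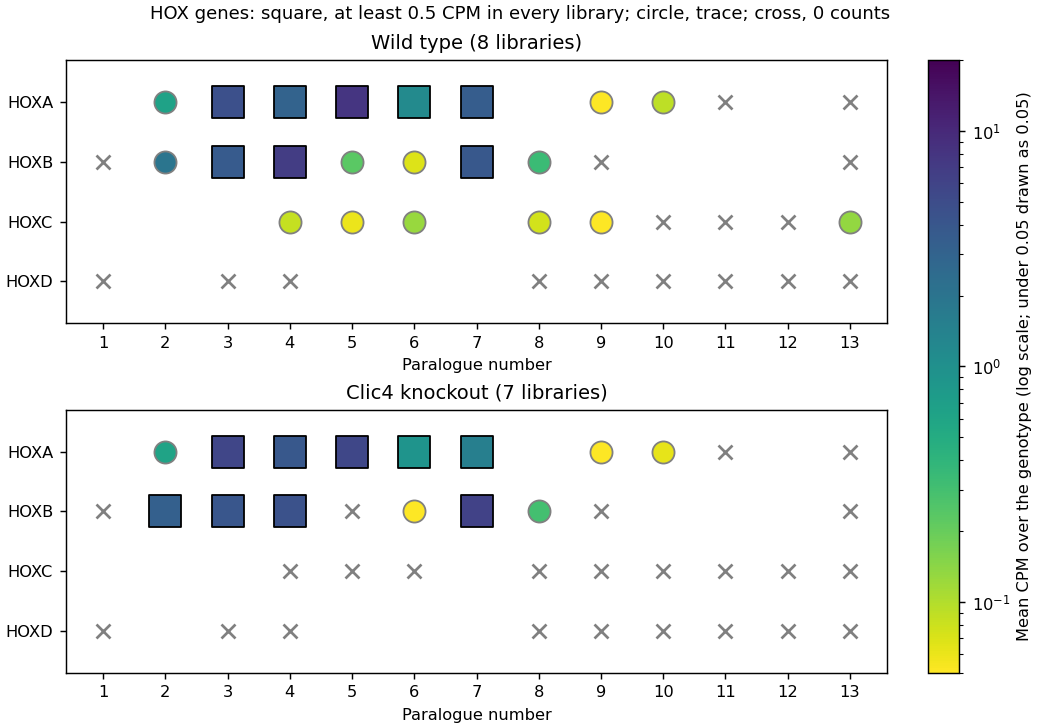
Expression class of HOX genes in wild-type (upper) and knockout (lower) libraries, by cluster (rows) and paralogue number (columns). Colour is the mean CPM over the genotype on a log scale, squares are genes at or above 0.5 CPM in every library, circles trace genes and crosses genes with 0 counts. Squares stop at paralogue 7 and occur in HOXA and HOXB alone.

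The 250 bases upstream of the start site are shown for 3 members that differed between genotypes, Hoxa5, Hoxa7 and Hoxb4, and for Hoxd13, the digit-patterning gene at the posterior end of the silent HOXD cluster, to set active beside silent promoters. They are RefSeq sequences on GRCm38.p6, written 5′ to 3′ on the gene's strand with CpG dinucleotides in capitals, at chr6:52204588-52204837 (minus strand), chr6:52218574-52218823 (minus), chr11:96318017-96318266 (plus) and chr2:74667975-74668224 (plus).
Hoxa5: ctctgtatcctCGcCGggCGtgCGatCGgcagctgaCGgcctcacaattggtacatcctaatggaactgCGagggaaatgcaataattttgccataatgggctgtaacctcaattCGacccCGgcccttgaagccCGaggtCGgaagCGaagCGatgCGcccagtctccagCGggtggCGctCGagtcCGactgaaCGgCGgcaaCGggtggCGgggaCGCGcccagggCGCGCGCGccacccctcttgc
Hoxa7: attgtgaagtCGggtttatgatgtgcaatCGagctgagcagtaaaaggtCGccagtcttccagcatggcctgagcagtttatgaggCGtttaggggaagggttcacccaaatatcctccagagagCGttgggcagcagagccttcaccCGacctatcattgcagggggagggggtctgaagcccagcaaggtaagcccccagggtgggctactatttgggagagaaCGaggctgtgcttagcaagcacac
Hoxb4: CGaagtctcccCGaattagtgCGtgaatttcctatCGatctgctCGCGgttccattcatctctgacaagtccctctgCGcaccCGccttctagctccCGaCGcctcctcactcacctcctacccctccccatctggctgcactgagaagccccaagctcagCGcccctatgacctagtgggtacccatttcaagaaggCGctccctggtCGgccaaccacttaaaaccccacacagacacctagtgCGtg
Hoxd13: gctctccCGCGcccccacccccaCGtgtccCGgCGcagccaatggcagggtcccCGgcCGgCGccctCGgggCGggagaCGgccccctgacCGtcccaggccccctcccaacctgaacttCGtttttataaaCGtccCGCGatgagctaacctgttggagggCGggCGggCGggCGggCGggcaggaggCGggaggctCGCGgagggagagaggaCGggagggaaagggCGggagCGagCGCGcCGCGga
Hoxa5 had 28 CpG in this window, Hoxa7 had 7, Hoxb4 had 14 and Hoxd13 had 31, where the median of 32851 mouse promoters is 6. The Hoxa7 start of RefSeq lies inside the longer mm10 gene model (52214491 to 52221854 on chromosome 6), so its window is inside that gene.

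RefSeq promoters were matched for 22 of the 39 genes. CpG numbers of expressed and silent members overlapped. They ran from 7 to 28 (median 18) over the 5 expressed genes with a sequence. Over the 13 start sites of 12 genes with 0 counts in all libraries they ran from 2 to 35 (median 13). The 7 is that of Hoxa7, whose window lies inside its gene model, and the next lowest expressed gene was Hoxb4 with 14. Of 4 motifs searched on both strands, CCAAT was in 2 of the 5 expressed promoters and in 9 of those 13, against 33.8% of all promoters. CACGTG was in 0 of 5 and in 4 of 13 (6.02% of all), TATAAA in 0 of 5 and in 2 of 13 (12.4%), and TGATTNAT, a site of HOX with PBX proteins, in 0 of 5 and in 1 of 13 (2.82%). These are matches of letters and not binding sites.

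Levels between genes were compared in the authors' RPKM (reads per kilobase per M), which corrects for gene length and holds 38 of the 39 genes, Hoxa2 being absent. In untreated wild-type cells Hoxa5 stood at 2.97 ± 0.214 RPKM (SD, n = 4). Hoxb4 (2.09 ± 0.270) and Hoxb7 (2.03 ± 0.319) came next and overlapped each other. These 3 stood above Hoxa4, Hoxa7, Hoxa3, Hoxb3, Hoxa6 and Hoxb2, whose means ran from 1.33 to 0.517 RPKM with overlap between each gene and the next.

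The order differed in untreated knockout cells. Hoxb7 stood at 3.13 ± 0.329 RPKM (SD, n = 4), above Hoxa5 in every library. Hoxa5 had 2.19 ± 0.548, and below it Hoxa4, Hoxa3, Hoxb4, Hoxb2 and Hoxb3 ran down to 0.916 RPKM, each overlapping the next. Hoxa7 (0.588 ± 0.111) and Hoxa6 (0.514 ± 0.192) were lowest, below Hoxb3 in every library. Hoxa7 thus stood beside Hoxa4 and Hoxa3 in wild-type cells and below them in knockout cells, and Hoxb7 below Hoxa5 in wild-type and above it in knockout cells.

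Of the 39 genes, 11 had enough counts to be tested between groups and 28 did not. In untreated cells 4 of the 11 were lower in knockout than in wild-type cells (among them Hoxa5, Hoxa7 and Hoxb4) and 2 were higher (Hoxb2 and Hoxb7), by edgeR's quasi-likelihood test with Benjamini-Hochberg adjustment over all 13085 genes tested. That is 54.5% of the tested members, against 66.8% of all genes tested (33.9% higher, 32.9% lower). With only 11 members tested, this gap is not read as a result about HOX genes. For all 6 the libraries of the genotypes did not overlap, which held for 58.5% of all genes. With a change over 1.5-fold asked as well, 3 of the 11 remained (Hoxa7, Hoxb2 and Hoxb7), against 24.4% of all genes. The median log2 difference was 0.01 over the 11 members and 0.00 over all genes tested.

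Hoxa7, known as a target of MLL fusion proteins in leukaemia, had the largest decrease among the tested members. Untreated knockout libraries held 1.38, 2.05, 1.46 and 1.54 CPM and wild-type libraries 3.44, 3.40, 3.48 and 3.13 CPM. No knockout library reached the lowest wild-type library. The difference was -1.06 on the log2 scale (SE 0.193, adjusted p = 2.24e-05), 2.08-fold lower. Treated libraries held 1.39, 1.72 and 1.31 CPM in knockout and 4.09, 3.36, 2.67 and 4.67 CPM in wild-type cells, with a log2 difference of -1.32 (SE 0.214, adjusted p = 4.64e-06).

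Hoxa5, needed for normal lung development, was uneven between knockout libraries. Untreated knockout libraries held 3.75, 6.30, 6.90 and 6.81 CPM, where replicate 1 was far below the other 3, and wild-type libraries held 7.97, 8.36, 7.10 and 8.16 CPM. The genotypes did not overlap, and the log2 difference was -0.40 (SE 0.155, adjusted p = 0.0273). The call was lost without knockout replicate 1 (log2 -0.24, adjusted p = 0.117), without wild-type replicate 10 (log2 -0.37, adjusted p = 0.0646) and without wild-type replicate 12 (log2 -0.39, adjusted p = 0.0532), each with a negative sign. With H2O2 the levels were 5.70, 6.25 and 3.60 CPM in knockout and 7.43, 9.15, 8.31 and 7.11 CPM in wild-type cells, and Hoxa5 was lower in knockout cells by -0.61 on the log2 scale (SE 0.174, adjusted p = 0.00361).

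Hoxa4, a gene of cervical vertebra patterning, was called with H2O2 only. Treated knockout libraries held 4.03, 4.74 and 4.09 CPM and treated wild-type libraries 2.52, 2.18, 3.49 and 3.09 CPM, without overlap (log2 0.62, SE 0.167, adjusted p = 0.00193). Untreated levels were 4.14, 3.97, 3.35 and 3.41 CPM in knockout and 3.44, 3.33, 2.92 and 3.19 CPM in wild-type cells, which overlapped (log2 0.20, SE 0.154, adjusted p = 0.255). A difference between the treatments in this genotype effect did not pass the test of the interaction (log2 0.42, SE 0.227, adjusted p = 0.839).

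Of the other tested HOXA members, none passed the test. Hoxa3, a gene of thymus and parathyroid formation, stood at 5.27 to 6.46 CPM in untreated knockout and 3.58 to 6.19 CPM in untreated wild-type libraries (log2 0.29, SE 0.147, adjusted p = 0.0839). With H2O2 its log2 difference was 0.35 (SE 0.159, adjusted p = 0.0536). Hoxa6 stood at 0.506 to 1.10 CPM in untreated knockout and 0.878 to 1.32 CPM in untreated wild-type libraries (log2 -0.47, SE 0.321, adjusted p = 0.203). Hoxa2, a gene of the second pharyngeal arch and the least abundant member tested, stood at 0.411 to 0.868 and 0.283 to 0.626 CPM in the same groups (log2 0.35, SE 0.355, adjusted p = 0.392).

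In HOXB, Hoxb4 was lower and Hoxb7 higher in knockout cells. Hoxb4, used to expand blood stem cells in culture, stood at 4.37, 4.93, 4.75 and 5.01 CPM in untreated knockout libraries and at 7.09, 5.53, 7.37 and 7.46 CPM in wild-type libraries. The groups did not overlap, and the log2 difference was -0.53 (SE 0.119, adjusted p = 0.000307), 1.44-fold lower. Treated libraries held 4.10, 3.71 and 4.09 CPM in knockout and 7.05, 6.04, 7.28 and 7.11 CPM in wild-type cells (log2 -0.79, SE 0.135, adjusted p = 9.55e-06).

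Hoxb7, studied as a growth-promoting gene in breast cancer, was higher in knockout cells in both comparisons. Untreated knockout libraries held 6.59, 6.85, 5.70 and 5.48 CPM, all above the wild-type libraries with 3.31, 4.32, 4.52 and 3.44 CPM. The log2 difference was 0.66 (SE 0.134, adjusted p = 1e-04), 1.58-fold higher. With H2O2 the levels were 5.28, 6.66 and 6.38 CPM against 4.03, 4.36, 3.56 and 3.59 CPM, and the log2 difference was 0.64 (SE 0.145, adjusted p = 0.000332).

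Hoxb2, a hindbrain gene, had the largest increase in untreated cells. Knockout libraries held 2.91, 3.49, 4.24 and 4.21 CPM and wild-type libraries 0.473, 1.84, 2.43 and 1.66 CPM, the lowest being replicate 9. The groups did not overlap with or without that library. The log2 difference was 1.22 (SE 0.279, adjusted p = 0.00062), and 0.92 without replicate 9 (adjusted p = 0.000539). With H2O2 the knockout libraries held 2.01, 2.20 and 3.93 CPM and the wild-type libraries 2.45, 2.18, 2.23 and 2.16 CPM, which overlapped (log2 0.24, SE 0.302, adjusted p = 0.497). The interaction was -0.98 on the log2 scale (SE 0.413, adjusted p = 0.797), so a difference between treatments did not pass the test. Hoxb3 stood at 3.54 to 5.00 CPM in untreated knockout and 3.68 to 4.66 CPM in untreated wild-type cells (log2 0.01, SE 0.144, adjusted p = 0.947).

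**Figure D2:**
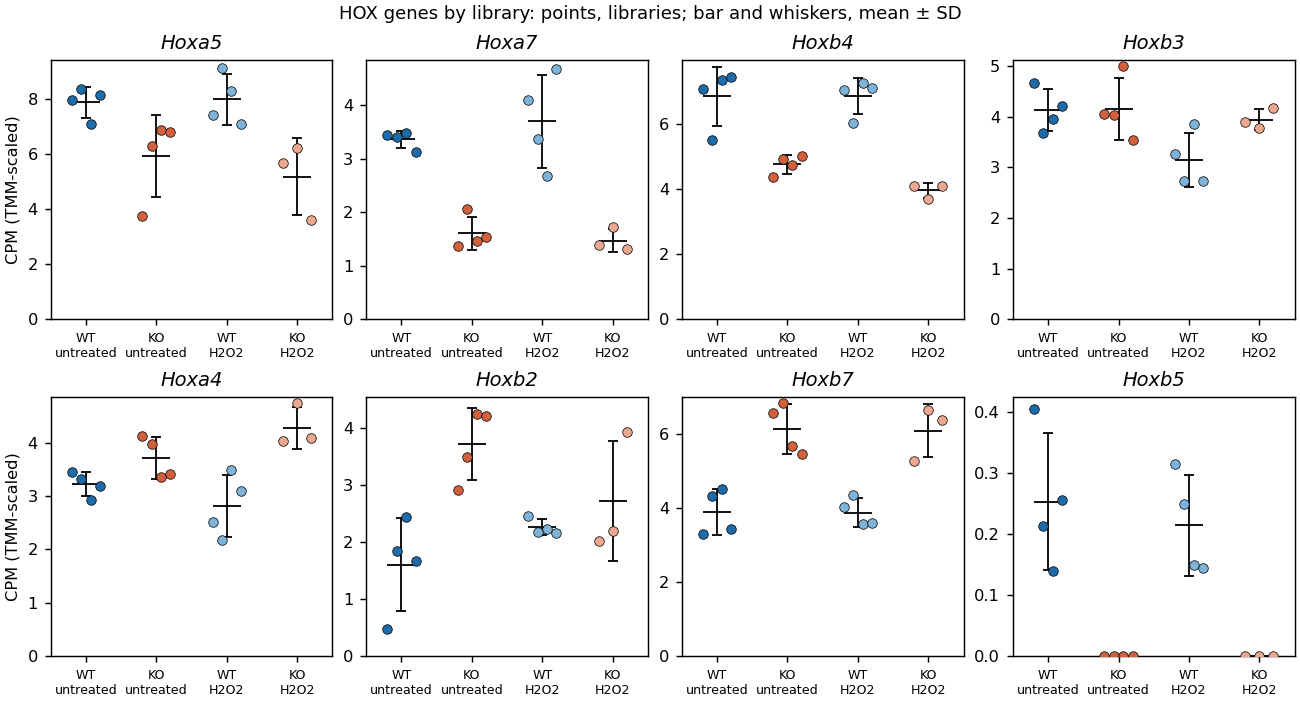
CPM of 8 HOX genes in each library, by group (untreated and H2O2-treated wild type in blue, knockout in orange). Points are libraries, horizontal bars means and whiskers SD, and each panel has its own axis from 0. Hoxa5, Hoxa7 and Hoxb4 lie lower in both knockout groups, Hoxb7 higher, and Hoxb5 has 0 counts in all 7 knockout libraries.

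With H2O2 present, 6 of the 11 tested members were again called between genotypes, 2 higher (Hoxa4 and Hoxb7) and 4 lower (among them Hoxa5, Hoxa7 and Hoxb4). The share was 54.5%, against 65.4% of all genes tested (33% higher, 32.4% lower). All 6 had no overlap between the libraries, which held for 66.4% of all genes, and 5 changed over 1.5-fold, against 25.4% of all genes. The median log2 difference was -0.24 over the 11 members and 0.00 over all genes. Called in both comparisons with the same sign were 5 members, among them Hoxa5, Hoxa7, Hoxb4 and Hoxb7, 83.3% of the calls in each. The matching share over all genes was not computed, so this count is not read as a result about HOX genes.

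**Figure D3:**
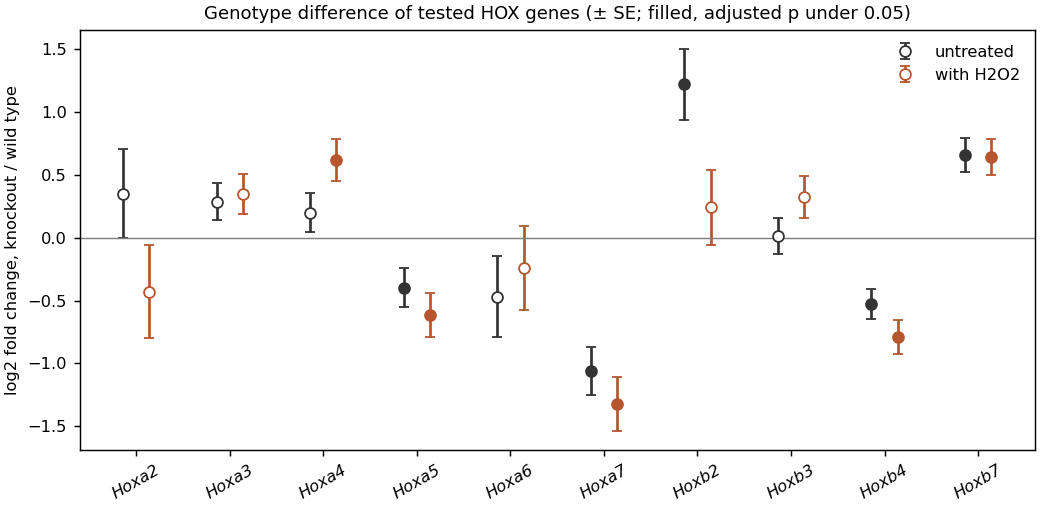
Log2 difference of knockout to wild type for tested HOX genes, untreated in black and with H2O2 in orange, with whiskers of 1 SE. Filled points have an adjusted p under 0.05. Hoxa5, Hoxa7 and Hoxb4 lie below 0 and Hoxb7 above it in both comparisons, while Hoxb2 is filled in the untreated comparison alone and Hoxa4 in the treated one alone.

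In 2 of 3 pairs with the same number, the ratio of the HOXA to the HOXB member differed between genotypes without overlap. The RPKM of Hoxa7 divided by that of Hoxb7 ran from 0.555 to 0.750 in untreated wild-type and from 0.151 to 0.216 in untreated knockout libraries. With H2O2 the ratios were 0.541 to 0.937 and 0.148 to 0.190. For Hoxa4 over Hoxb4 the shift was the other way, from 0.536 to 0.815 in untreated wild-type to 0.920 to 1.28 in untreated knockout libraries, and from 0.483 to 0.649 to 1.33 to 1.73 with H2O2. The Hoxa3 to Hoxb3 ratio overlapped in all groups, with values from 0.879 to 2.05. Of single genes, 58.5% untreated and 66.4% with H2O2 also did not overlap between genotypes. The share over ratios of other gene pairs was not computed, so the count of pairs is not read as a result about paralogues. These ratios were looked at after the values of the genes were known and are given without a test.

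**Figure D4:**
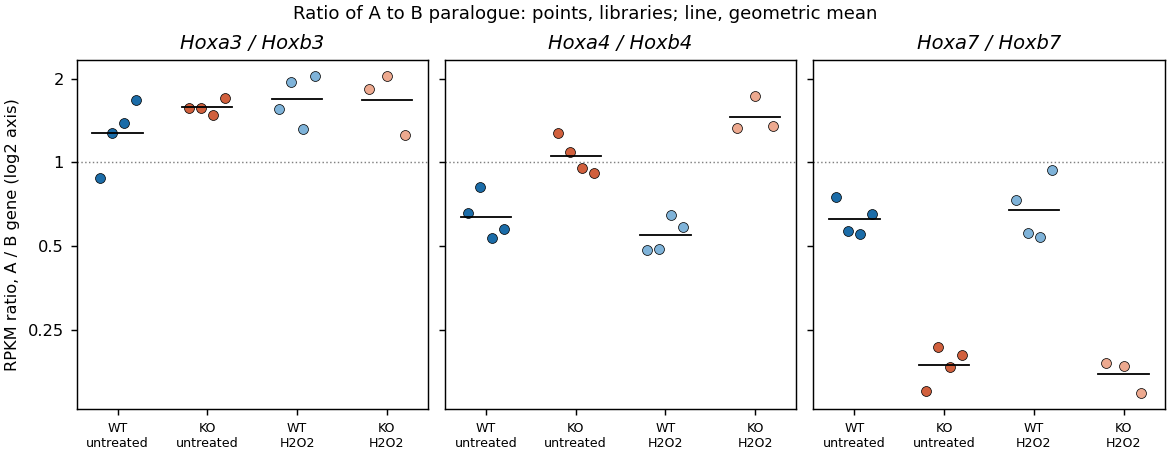
RPKM ratio of the HOXA to the HOXB member of paralogue groups 3, 4 and 7 in each library, on a log2 axis, by group. Points are libraries, the lines are geometric means and the dotted line marks equal levels. In knockout libraries the Hoxa4 to Hoxb4 ratio is higher and the Hoxa7 to Hoxb7 ratio lower than in all wild-type libraries.

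Summed over the cluster, HOXA stood at 30.7 ± 1.72 CPM (SD, n = 4) in untreated knockout and 37.9 ± 0.158 CPM in untreated wild-type cells, and at 29.9 ± 3.28 (n = 3) and 36.6 ± 1.25 CPM (n = 4) with H2O2. All knockout sums lay below all wild-type sums. A lack of overlap between genotypes was also seen in 58.5% of all single genes untreated and 66.4% with H2O2. The sum is not a fall of every member. In untreated knockout cells Hoxa2, Hoxa3 and Hoxa4 had higher means, and Hoxa5, Hoxa6 and Hoxa7 lower ones. HOXB stood at 19.2 ± 0.734 and 17.2 ± 1.21 CPM untreated, where the ranges overlapped, and at 17.0 ± 1.64 and 16.8 ± 0.880 CPM with H2O2. The sum over all HOX genes was 45.1 to 51.6 CPM in knockout and 52.6 to 57.7 CPM in wild-type libraries. In bulk RNA, fewer cells that express a gene and less RNA per cell cannot be told apart.

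Among the members too low to test, Hoxb5, a gene of enteric neuron and blood stem cell development, was counted in wild-type cells alone. It had 6, 3, 2 and 4 counts in the untreated and 5, 4, 2 and 2 in the treated wild-type libraries, and 0 in all 7 knockout libraries. Against a floor of 3 counts over the knockout libraries, the Hoxb5 level in wild-type cells was 7.86-fold. Without replicate 9 this ratio to the floor was 7.06-fold. The wild-type level enters without its counting error or its spread between libraries, so such ratios are not strict lower bounds. Hoxc13, a gene of hair and nail formation, had 1, 2, 0 and 0 counts in the untreated and 5, 4, 2 and 2 in the treated wild-type libraries, and 0 in the knockout libraries. Over both treatments the Hoxc13 level in wild-type cells was 4.49-fold the same floor (4.81-fold without replicate 9), a ratio taken in the same way and with the same limit. The untreated wild-type libraries held 3 of its 16 counts, which is the floor itself, so this ratio does not hold for untreated cells alone.

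The other HOXB and HOXA trace genes did not separate the genotypes. Hoxb8 had 40 counts in wild-type and 30 in knockout cells, a CPM ratio of 1.12 (95% exact binomial interval 0.682 to 1.87, counting error only). Without replicate 9 it had 29 and 30 counts, and the ratio turned to 0.930 (interval 0.539 to 1.60). Hoxa10 had 11 and 6 counts (ratio 1.54, interval 0.523 to 5.08), Hoxb6 had 8 and 3 (ratio 2.25, interval 0.539 to 13.1), and Hoxa9 had 1 in each. Without replicate 9 the ratios were 1.44 for Hoxa10 (interval 0.459 to 4.93) and 1.60 for Hoxb6 (interval 0.312 to 10.3). Hoxa11, Hoxa13, Hoxb1, Hoxb9, Hoxb13, Hoxc10, Hoxc11 and Hoxc12 joined the HOXD genes with 0 counts in all 15 libraries.

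Counts of Hoxc4, Hoxc5, Hoxc6, Hoxc8 and Hoxc9 came almost wholly from 1 library. These genes, the anterior and middle part of HOXC, had 42 counts in all, 40 of them in wild-type replicate 9, with 1 more of Hoxc5 in replicate 16 and 1 of Hoxc6 in replicate 11. Without replicate 9 Hoxc4, Hoxc8 and Hoxc9 had 0 counts in every library, and no other library held more than 1 count of any of the 5 genes. The same library held 67 counts of the leukocyte gene Ptprc, 13 of the T cell gene Cd3e, 43 of the pericyte and fibroblast gene Pdgfrb and 35 of the endothelial gene Pecam1, against at most 1, 0, 1 and 5 in any other library. The part of such RNA in the HOXC counts, or in the low Hoxb2 level of replicate 9, was not tested. Hoxb5 and Hoxc13, in contrast, had 22 and 15 counts in the other 7 wild-type libraries.

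**Figure D5:**
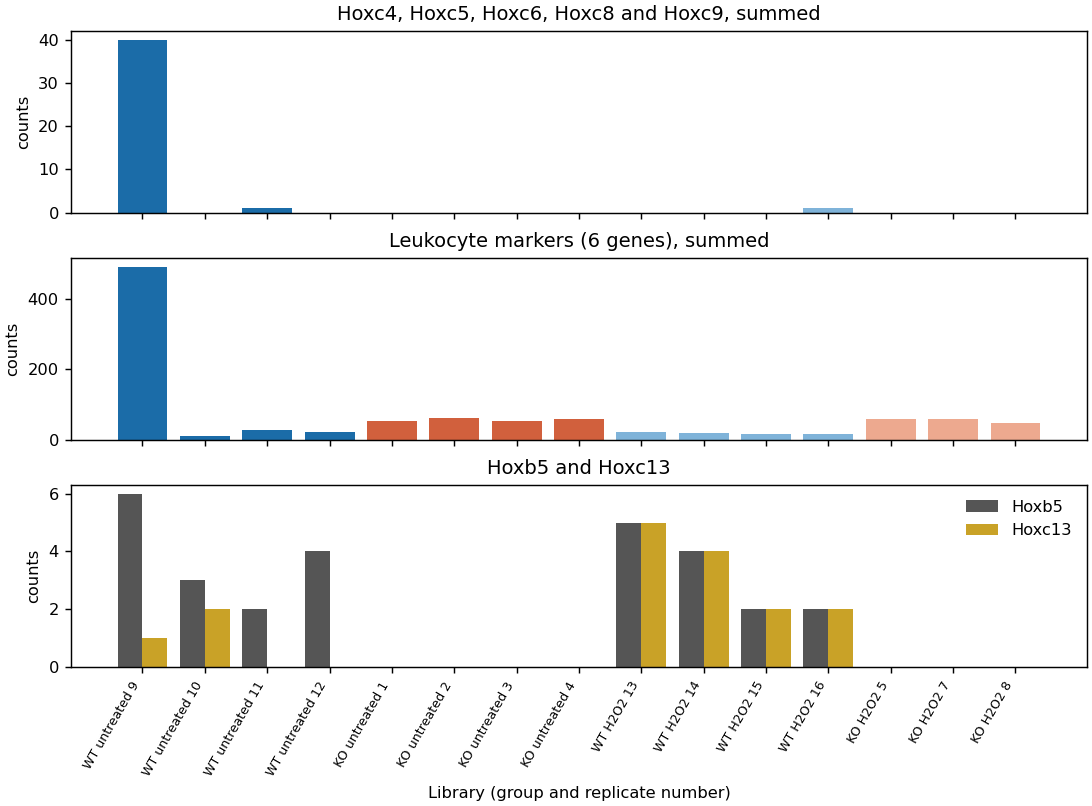
Counts in each of the 15 libraries, labelled by group and replicate number: Hoxc4 to Hoxc9 summed (top), 6 leukocyte markers summed (middle), and Hoxb5 and Hoxc13 (bottom). Wild-type replicate 9 holds 40 of the 42 Hoxc4 to Hoxc9 counts and 490 leukocyte marker counts, while Hoxb5 and Hoxc13 counts are spread over wild-type libraries.

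Peroxide left the HOX genes without a called change. In wild-type cells 0 of the 11 tested members were called between treated and untreated libraries, against 0.0153% of all genes tested (2 genes), and all 11 overlapped, where 3.81% of all genes did not. In knockout cells 0 of 11 were called, against 0.0535% (7 genes). At an unadjusted p under 0.05, edgeR gave 1 of the 11 members in wild-type cells and 0 in knockout cells. Among all 13085 genes tested it gave 847 and 1041. DESeq2 and limma-voom also called 0 members after adjustment in each. The 1 member was Hoxb3, at 2.73 to 3.86 CPM treated and 3.68 to 4.66 CPM untreated in wild-type cells (log2 -0.40, SE 0.150, adjusted p = 0.648). In knockout cells Hoxb4 was lower in all 3 treated libraries than in the 4 untreated ones without passing the test (log2 -0.27, SE 0.142, adjusted p = 0.668), a lack of overlap shared by 7.71% of all genes. For the interaction of genotype and treatment 0 of 11 members were called, against 0% of all genes. At an unadjusted p under 0.05 edgeR gave 1 member, Hoxb2, and 808 of all 13085 genes tested. The other tools called 0 members.

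Every tested partner of HOX proteins differed between genotypes, in both directions. Of 11 genes of TALE homeodomain cofactors and HOX-binding regulators, 9 were tested, and in untreated cells 5 were higher and 4 lower in knockout, with a median log2 difference of 0.16, where 66.8% of all genes tested were called. The largest increase was Pbx3, at 15.0 ± 1.16 CPM in knockout and 5.35 ± 1.24 CPM in wild type (SD, n = 4 each; log2 1.48, SE 0.115, adjusted p = 4.97e-12). Meis1, Meis2 and Meis3 were among the 4 that were lower, and Pbx2, Pknox1, Gmnn and Hipk2 were the other 4 that were higher. The same counts, 5 higher and 4 lower, held with H2O2, where 65.4% of all genes were called.

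The 38 genes of Polycomb and trithorax complexes and their partners, which keep HOX clusters closed or open, were all tested. In untreated cells 18 were higher in knockout, 9 lower and 11 not called, with a median log2 difference of 0.12. The called share of 71.1% was near the 66.8% of all genes tested. Phf19, a Polycomb-like subunit that reads methylated histone H3, had the largest increase, 45.6 ± 3.15 against 16.3 ± 1.58 CPM (SD, n = 4 each; log2 1.49, SE 0.069, adjusted p = 5.39e-17). Cbx7, a chromobox subunit of the canonical Polycomb complex, had the largest decrease, 29.9 ± 1.74 against 42.2 ± 4.01 CPM (log2 -0.49, SE 0.063, adjusted p = 7.36e-08). The counts with H2O2 were again 18 higher, 9 lower and 11 not called, beside 65.4% of all genes.

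Retinoic acid is a classical inducer of anterior HOX genes, and 7 of 18 genes of its receptors, carriers and enzymes were tested. In untreated cells 3 were higher in knockout, 3 lower and 1 not called, and with H2O2 3 were higher and 4 lower, where 66.8% and 65.4% of all genes tested were called. Crabp2, a carrier of retinoic acid to the nucleus, had 90 counts over the 4 untreated knockout and 7 over the 4 untreated wild-type libraries (1.53 ± 0.436 against 0.115 ± 0.109 CPM, SD; log2 3.60, SE 0.478, adjusted p = 1.63e-07). Rdh10, which makes retinaldehyde from retinol, had the largest decrease, 5.37 ± 1.11 against 10.1 ± 0.900 CPM (log2 -0.91, SE 0.129, adjusted p = 5.11e-07). The receptor gene Rarb, itself a retinoic acid target, had 0 counts in all 15 libraries. None of the 8 ParaHox and Evx genes had enough counts to be tested.

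RNAs made inside the clusters were few. Of 19 named noncoding RNAs, 17 were in the table and 3 were tested. Hotairm1, transcribed from the anterior end of HOXA, was higher in untreated knockout cells (1.22 ± 0.244 against 0.478 ± 0.195 CPM, SD, n = 4 each; log2 1.35, SE 0.316, adjusted p = 0.000455), while with H2O2 it stood at 0.518 ± 0.159 (n = 3) against 0.800 ± 0.139 CPM (log2 -0.63, SE 0.371, adjusted p = 0.139). The difference between these comparisons did not pass the test of the interaction (log2 -1.98, SE 0.487, adjusted p = 0.455). Hoxaas2 was called lower with H2O2 alone (log2 -1.13, SE 0.438, adjusted p = 0.026), and Hoxb3os was called in neither. In the annotation 6 of the 11 tested members share exon bases with a gene on the other strand, among them Hoxa7 (586 bases with Hoxaas3) and Hoxb2 (953 with Hoxb3os), and Hoxa2 and Hoxa3 also with a gene on the same strand. The kit marks strand, but whether the counting used it is not given in the sources used here, so reads in these bases may be divided between partners.

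Genes next to the clusters differed between genotypes about as often as other genes. Of the 3 nearest protein-coding genes on each side of each cluster, 24 in all, 19 were tested. In untreated cells 7 were higher in knockout, 5 lower and 7 not called, a share of 63.2% against the 66.8% of all genes, with a median log2 difference of 0.05. Hnrnpa3, beside HOXD, had the largest increase (1087 ± 74.7 against 696 ± 61.9 CPM, SD, n = 4 each; log2 0.64, SE 0.060, adjusted p = 3.2e-08). Skap2, beside HOXA, had the largest decrease (52.3 ± 2.60 against 73.6 ± 1.10 CPM; log2 -0.49, SE 0.042, adjusted p = 3.73e-11). The counts with H2O2 were also 7 higher, 5 lower and 7 not called. Beside the HOXC cluster, which was not expressed, the neighbours Smug1 and Hnrnpa1 stood at 14.1 and 776 CPM in untreated knockout cells and at 15.1 and 571 CPM in untreated wild-type cells.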

How the data were processed

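RNA from 15 libraries of 6DT1 cells was read as deposited. The authors deposited expected counts by gene symbol, already whole numbers and not normalized, and RPKM values that correct these counts for gene length and depth. The submitters' processing notes name cutadapt, STAR, RSEM and mm10, and versions, annotation and strand setting are not given in the sources used here. Counts were tested with edgeR 4.0.16 in R 4.3.3 (filterByExpr, TMM scaling, robust quasi-likelihood fit of the 4 group means, 11 residual degrees of freedom), with Benjamini-Hochberg adjustment over 13085 genes and calls at an adjusted p under 0.05. Every adjusted p comes from that test unless another tool is named, and SE is the log2 fold change divided by the square root of F, which is approximate. DESeq2 1.42.0, limma-voom (limma 3.58.1), other scaling, no filter on low counts, only the compared groups and leaving out each library were tried as alternatives. Positions are from GENCODE M21 on mm10, and promoters from RefSeq. The members and gene lists were chosen with earlier results of these data known. By rule the named genes were the HOX genes, Clic4, and per list the called gene with the largest change each way in the untreated genotype comparison. A few items that this rule names are not reported here. Other genes named were chosen after their values were seen. Libraries of 12.31 to 16.03 M counts put 3 counts per genotype at 0.0254 CPM (wild type) or 0.0301 CPM (knockout).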

Additional observations from a re-analysis of the deposited data

Results flagged for a closer look

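In the untreated wild-type group, replicate 9 lay far from the other 3 libraries for 4 HOXC genes. Hoxc4 stood at 0.675 CPM, Hoxc5 at 0.405 CPM, Hoxc6 at 0.945 CPM and Hoxc8 at 0.608 CPM in that library, while the other 3 libraries of the group had 0 counts of these genes except for 1 count of Hoxc6. Of 46 groups of 4 libraries checked over HOX genes with Dixon's ratio, these 4 passed the 95% critical value for 4 samples. For continuous values chance alone flags about 1 in 20 groups. The ratio is 1 whenever the other 3 libraries have 0 counts, as for Hoxc4, Hoxc5 and Hoxc8, so that rate does not apply to them. All 4 flags are from the same library, so they are not separate observations. That library also held 490 leukocyte marker counts, and the part of these in the HOXC values was not tested.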

How the results depend on the processing

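The number of HOX genes called between untreated genotypes was 6 with DESeq2, limma-voom, other size factors and only the compared groups, and 5 to 6 when each library was left out in turn. It was 10 of 22 tested (2 higher, 8 lower) with no filter on low counts, which adds Hoxb5, Hoxc4, Hoxc6 and Hoxc8, and the 3 HOXC genes rest on replicate 9. That is 45.5% of the tested members, against 37.3% of all genes in that fit, while with the filter the shares were 54.5% and 66.8%. With H2O2 present the number called was 6 to 8 over all alternatives. The 8, of 22 tested, came with no filter on low counts, which adds Hoxb5 and Hoxc13. That is 36.4% of the tested members, against 35.7% of all genes in that fit. Calls for treatment and interaction were 0 throughout. Expressed members numbered 9 to 10 in wild-type and 10 in knockout cells when libraries were left out. They numbered 13 and 12 at 0.1 CPM, 8 and 9 at 1 CPM, and 9 and 8 at an RPKM of 0.5. No log2 difference of a called member changed sign. Of 274 refits of single members, 267 kept their side of the threshold, 3 lost a call (Hoxa5 untreated) and 4 gained one. Those gained were Hoxa3 untreated without wild-type replicate 12 (0.45, adjusted p = 0.00861), Hoxa3 with H2O2 using only the compared groups (0.35, adjusted p = 0.0317) or without knockout replicate 8 (0.49, adjusted p = 0.0126), and Hoxb3 with H2O2 without wild-type replicate 15 (0.43, adjusted p = 0.0312). The causes were not tested. No paired analysis was possible because no 2 groups share a replicate number. At this depth the counting intervals of Hoxa9, Hoxa10, Hoxb6 and Hoxb8 include equal levels, so differences of these trace genes were not detectable.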
